A study of Rattus norvegicus with 18 samples.

Results

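The postsynaptic density scaffolds examined here are 9 genes of 3 families, Shank1, Shank2, Shank3, Homer1, Homer2, Homer3, Dlg2, Dlg3 and Dlg4. They were chosen by name, and each matched 1 row of the 19113 genes in the table. All 9 passed the filter on low values, a mean above 1, as did 18172 genes in all. Experiment 2 sequenced RNA of basolateral amygdala (BLA) from adult male Sprague-Dawley rats, obtained at 8 weeks of age, with 6 rats and 6 libraries in each of 3 groups. Rats of the SH group were single-housed throughout. Rats of the EE group spent their active phase in groups of 10 in a large cage with toys, and were alone in their home cages during the day. Rats of the ER group had 4 weeks of this enrichment and were then single-housed for 2 weeks. None had been tested for behaviour. No genotype or drug differed between the groups. The tissue was punched from both hemispheres over 3 sections per rat, and no samples were pooled. The experiment ran 10 rats per group, the number that 1 enrichment cage held, and 6 per group were sequenced. The sources used here do not say how EE and ER rats were divided among the enrichment cages, so cage may coincide with group. A spread between cages is not part of the tests, which take the rat as the unit.

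The postsynaptic density is the protein mesh beneath the membrane of an excitatory synapse. In it, the Dlg proteins (the PSD-95 family of membrane-associated guanylate kinases) lie closest to the membrane and hold NMDA receptors, potassium channels and the auxiliary subunits of AMPA receptors through their PDZ domains. SAPAP proteins, made from the Dlgap genes, link them to the Shank proteins deeper in the mesh, and Homer proteins tie Shank to group I metabotropic glutamate receptors and to calcium stores. Mutations of SHANK genes in people are known in autism and related conditions.

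Each deposited value is the number of reads of a gene over the size factor of its library, called a normalized value below. They compare rats gene by gene and are not corrected for gene length, so levels of different genes are not compared. The libraries held 17753797 to 23450276 reads, and each member had at least 82 reads in every library. Log2 fold changes are differences between group means of log2(value + 1), with standard errors (SE) and p-values from limma over all 18 libraries, adjusted by the Benjamini-Hochberg method over all genes tested. Markers of excitatory neurons of this region were present in every library, with Slc17a7, the vesicular glutamate transporter of such cells, at a lowest normalized value of 36100 and Rspo2 at 882. The 10 striatal markers, none at 0, had medians from 36.4 for Gpr6 to 6560 for Penk, and their sums ran from 7471 to 15444 over the libraries. Npy of the interneuron list was listed at or near 0, with a highest value of 1.06. Whether this row reflects the level of Npy in the tissue was not tested. In bulk tissue, fewer cells of a type and less RNA per cell cannot be told apart.

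Libraries SH 1 and SH 3 stood apart from the rest. On the first principal component of all genes tested, SH 3 lay at -137 and SH 1 at -45.1, while the other 16 libraries lay between -0.22 and 21.7. The median correlation with other libraries was 0.944 for SH 3, 0.962 for SH 1 and at least 0.970 for the rest. Their totals, 21726919 reads in SH 3 and 22177364 in SH 1, lay within the range of the other libraries. Results of the members against SH are therefore given with and without them.

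No scaffold gene passed an adjusted p of 0.05 in EEvSH, the contrast for the experience of enrichment, in ERvSH, enrichment and its removal together, or in ERvEE, removal alone. The background was also 0% of the 18172 genes in each contrast. For none of the 9 genes did the groups fail to overlap in any contrast, where 0.171% of all genes had groups that do not overlap in EEvSH, 0.292% in ERvSH and 0.215% in ERvEE. At an unadjusted p of 0.05, 0 of 9 members were past it in EEvSH (5.87% of all genes), 2 in ERvSH (7.89%) and 0 in ERvEE (3.66%). These 2 were Homer1 and Dlg2.

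**Figure D1:**
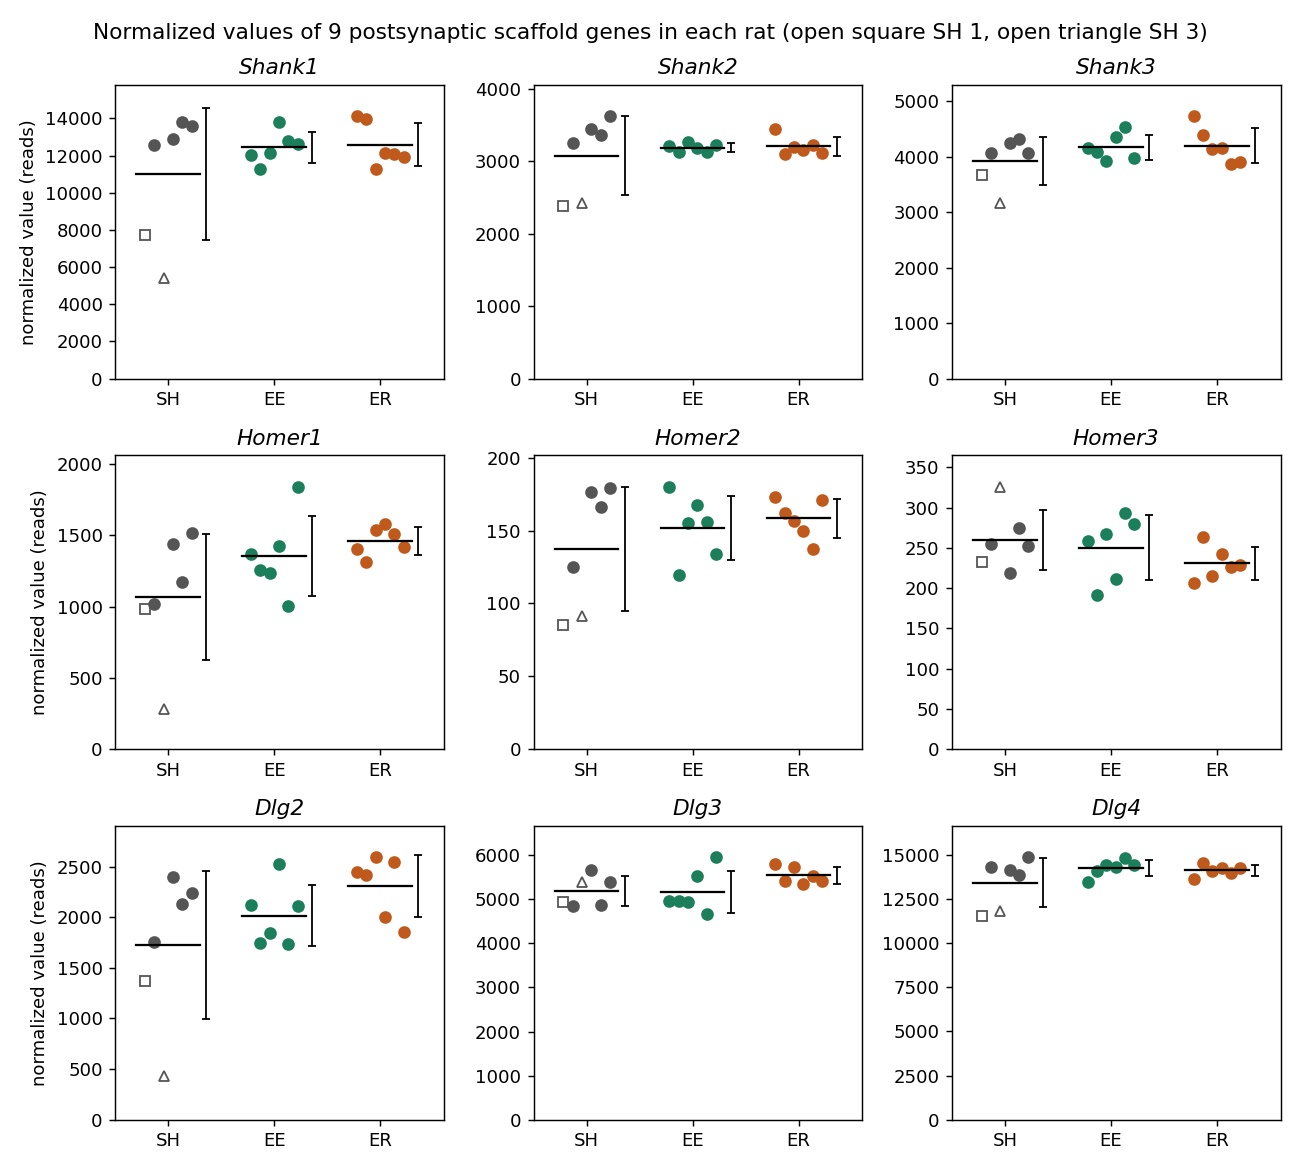
Normalized values (reads, y axis) of the 9 scaffold genes in each rat, by housing group (x axis), with the group mean as a line and the SD as a bar (n = 6). The open square is SH 1 and the open triangle SH 3, which for Shank1 lie at 7722 and 5398 below all other rats, while for Dlg3 they lie among the other rats.

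Shank1 encodes a large scaffold with a PDZ domain that binds SAPAP and long proline-rich stretches that bind Homer and cortactin. Its normalized value in SH had a lowest of 5398, a median of 12750 and a highest of 13830, against 11280, 12400 and 13780 in EE and 11280, 12140 and 14110 in ER. The low end of SH is SH 3 and, at 7722, SH 1. The other 4 SH rats lay between 12580 and 13830, inside the range of the enriched groups. The SH group averaged 11010 ± 3550, the EE group 12450 ± 846 and the ER group 12590 ± 1160 (SD, n = 6). Log2 fold changes of Shank1 were 0.26 (SE 0.17) in EEvSH, 0.27 (SE 0.17) in ERvSH and 0.01 (95% interval -0.35 to 0.38) in ERvEE. With SH 1 and SH 3 left out they were -0.09 in EEvSH and -0.08 in ERvSH, and the ERvEE interval narrowed to -0.11 to 0.14. Leaving out SH 3 alone gave 0.066 in EEvSH and 0.080 in ERvSH.

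Shank2 is a second scaffold of the same layout, whose loss in mice alters NMDA receptor function. Its normalized value in SH had a lowest of 2382 in SH 1, a median of 3308 and a highest of 3620. EE rats lay in a narrow band of 3122 to 3270 around a median of 3199, with a mean of 3191 ± 58 (SD, n = 6). ER rats lay between 3095 and 3451 around a median of 3173. Apart from SH 1 and SH 3, at 2423, every SH rat but SH 2, at 3252, was above the highest EE rat. Log2 fold changes of Shank2 were 0.07 (SE 0.089) in EEvSH, 0.08 (SE 0.089) in ERvSH and 0.01 (SE 0.089) in ERvEE. Without SH 1 and SH 3, the log2 fold change was -0.10 (SE 0.046) in EEvSH. It was past the unadjusted threshold of 0.05, as were 8.35% of all genes in that fit, and its adjusted p was 0.584 by limma. The corresponding ERvSH value of Shank2 was -0.09 (SE 0.046). Leaving out SH 1 alone gave 0.0003 in EEvSH and 0.0067 in ERvSH.

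Shank3, the gene at the Phelan-McDermid syndrome locus in people, was the steadiest of its family once all rats are counted. Its normalized value in SH had a lowest of 3176 in SH 3, a median of 4075 and a highest of 4319, against 3927, 4123 and 4531 in EE and 3875, 4158 and 4730 in ER. The 3 groups overlapped over most of their range. Log2 fold changes of Shank3 were 0.09 (SE 0.073) in EEvSH, 0.10 (SE 0.073) in ERvSH and 0.01 (SE 0.073) in ERvEE. Once both rats were left out they were -0.0036 in EEvSH and 0.01 in ERvSH, each with an interval inside -0.13 to 0.13.

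Homer1 encodes the Homer protein of most forebrain synapses. Its long forms join in tetramers that cross-link mGluR5, Shank and IP3 receptors, and its short form, Homer1a, is induced by neuronal activity and uncouples them. The table has 1 row for the gene, so the forms cannot be told apart here. Over the 18 libraries, though not over the 16 without SH 1 and SH 3, Homer1 and Dlg2 varied together more closely than any other pair of members, so their promoter windows are shown, with that of the steady Dlg4. They come from RefSeq on the build GRCr8, which had such a window for 5 of the 9 members, and run from 250 bases before to 50 after 1 annotated start of the gene. Capitals mark matches on either strand to the motif CCAAT or to TATAAA. Homer1 lies at chr2:26278762-26279061, Dlg2 at chr1:154539421-154539720 and Dlg4 at chr10:55239534-55239833, all on the plus strand.
Homer1: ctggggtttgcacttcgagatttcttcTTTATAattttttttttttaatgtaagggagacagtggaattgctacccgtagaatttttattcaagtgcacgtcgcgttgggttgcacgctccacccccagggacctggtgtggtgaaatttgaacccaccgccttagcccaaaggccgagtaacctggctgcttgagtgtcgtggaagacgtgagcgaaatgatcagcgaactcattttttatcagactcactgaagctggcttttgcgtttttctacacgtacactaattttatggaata
Dlg2: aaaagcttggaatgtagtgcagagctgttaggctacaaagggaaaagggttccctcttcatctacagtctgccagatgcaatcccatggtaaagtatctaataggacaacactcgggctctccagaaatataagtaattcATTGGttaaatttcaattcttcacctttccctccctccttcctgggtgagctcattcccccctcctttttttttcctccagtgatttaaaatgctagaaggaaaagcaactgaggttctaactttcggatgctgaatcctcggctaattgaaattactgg
Dlg4: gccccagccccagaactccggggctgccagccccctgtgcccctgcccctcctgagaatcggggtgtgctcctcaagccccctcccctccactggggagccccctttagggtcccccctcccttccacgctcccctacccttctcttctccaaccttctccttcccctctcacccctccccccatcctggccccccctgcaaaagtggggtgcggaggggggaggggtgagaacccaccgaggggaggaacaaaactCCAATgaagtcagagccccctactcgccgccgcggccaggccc
The Homer1 window held 1 match to TATAAA, found in 14.2% of 33469 promoter windows of this length. It lay on the reverse strand, at -223 counted from the annotated start. Those of Dlg2 and Dlg4 held 1 match each to CCAAT, found in 37.5%. The Dlg2 match lay at -110, and the Dlg4 match at 8, after the start. Homer1 and Dlg2 shared no motif searched, since neither TGACGTCA (1.83% of windows), its part TGACG (21.2%), GGGCGG (33.1%) nor CACGTG (6.42%) was present, on either strand, in any of these windows. GC content was 44.7% for Homer1, 42.3% for Dlg2 and 68.7% for Dlg4, around a median of 51.7% for all windows, and CpG counts were 14, 3 and 9 around a median of 7. A match to letters describes the window and is not a measured binding site.

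The normalized value of Homer1 in SH had a lowest of 281.6, a median of 1096 and a highest of 1515. In EE it had a lowest of 1008, a median of 1312 and a highest of 1840, and in ER 1315, 1461 and 1582. All 6 ER rats were above the medians of SH and EE, but 2 SH rats and 3 EE rats reached the range of the ER group. SH 3 held 281.6, far below the next SH rats, SH 1 at 983 and SH 2 at 1018. The SH group averaged 1069 ± 442, the EE group 1355 ± 278 and the ER group 1461 ± 99.9 (SD, n = 6). The log2 fold change of Homer1 was 0.62 (SE 0.28, interval 0.04 to 1.20) in ERvSH, with an adjusted p of 0.567 by limma. An exact two-sided permutation test of the same 12 rats gave p = 0.0368, the only one under 0.05 of 27 such tests over 9 members and 3 contrasts, whose smallest possible p is 0.00216. In EEvSH the log2 fold change was 0.49 (SE 0.28) and in ERvEE 0.13 (SE 0.28). SH 3 decided the size of these values: without it, Homer1 was at 0.14 in EEvSH and 0.27 in ERvSH. Over the 16 libraries without SH 1 and SH 3, Homer1 was at 0.07 (interval -0.20 to 0.33) in EEvSH and 0.20 (-0.07 to 0.46) in ERvSH.

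Homer2, a long-form Homer without an inducible short form, was read thinly, at 82 to 180 reads per library. Its normalized value in SH had a lowest of 85.4 in SH 1, a median of 145.5 and a highest of 179.2, against 119.5, 155.8 and 180 in EE and 137.5, 159.3 and 173 in ER. SH 3, at 91.4, was also below every enriched rat. Log2 fold changes of Homer2 were 0.20 (SE 0.18) in EEvSH, 0.26 (SE 0.18) in ERvSH and 0.07 (SE 0.18) in ERvEE. In the 16 other libraries they were -0.09 in EEvSH and -0.02 in ERvSH, with intervals of -0.37 to 0.20 and -0.31 to 0.27. Leaving out SH 1 alone gave 0.075 in EEvSH and 0.14 in ERvSH. The counting error of a single library was 0.123 on the log2 scale, beside a residual SD of 0.311 over 18 libraries and 0.193 over 16.

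Homer3, the Homer best known from cerebellar Purkinje cells, ran the other way in SH 3. That rat had the highest normalized value of all 18, 325.6, where the SH group had a lowest of 218.7 and a median of 253.5. EE rats had a lowest of 191.1, a median of 262.7 and a highest of 293.2, and ER rats 206.2, 227.8 and 264. Log2 fold changes of Homer3 were -0.06 (SE 0.12) in EEvSH, -0.16 (SE 0.12) in ERvSH and -0.10 (SE 0.12) in ERvEE, within the spread between rats. The EEvSH value was -0.01 and the ERvSH value -0.12 without SH 1 and SH 3.

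The log2 ratio of Homer1 to Homer3, which sets aside the scaling of a library, had a lowest of -0.21 in SH 3, a median of 2.09 and a highest of 2.71 in SH. In EE it had a lowest of 1.78, a median of 2.55 and a highest of 2.75, and in ER 2.31, 2.71 and 2.83. The ERvSH difference in this ratio was 0.78 with an exact two-sided permutation p = 0.0216, the only p under 0.05 among 27 tests of 9 ratios within families, and the ratio is shown because of that value. The exact p was above 0.05 when single rats were left out, namely SH 3, with a difference of 0.37 and p = 0.0563, or any of ER 1, ER 3, ER 4, ER 5 and ER 6, with p from 0.0649 to 0.0714. With both SH 1 and SH 3 left out the difference was 0.31 with p = 0.1 in the exact test, and 0 of 27 were under 0.05.

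Dlg2 encodes PSD-93, a PSD-95 relative at the synapse and at the axon initial segment. Its normalized value in SH had a lowest of 434.2 in SH 3, a median of 1942 and a highest of 2396. EE rats had a lowest of 1737, a median of 1979 and a highest of 2528, and ER rats 1853, 2430 and 2591. SH 1, at 1374, was the second lowest of the 18 rats, and the other 4 SH rats lay between 1754 and 2396. The log2 fold change of Dlg2 was 0.60 (SE 0.29, interval 0.00 to 1.20) in ERvSH, with an adjusted p of 0.567 by limma, and the exact permutation test gave p = 0.0844. In EEvSH it was 0.40 (SE 0.29). Without SH 3 the values were 0.041 in EEvSH and 0.24 in ERvSH, and without SH 1 and SH 3 they were -0.08 and 0.11. In ERvEE, where SH rats enter only through the shared spread, it was 0.20 with an interval of -0.40 to 0.80, which narrowed to -0.01 to 0.41 without SH 1 and SH 3 (adjusted p = 0.635 by limma).

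Dlg3 encodes SAP102, which carries NMDA receptors to the synapse and prevails in young neurons. Unlike Homer1 and Dlg2, its normalized value in SH 3 was level with the other rats. In SH it had a lowest of 4841, a median of 5172 and a highest of 5676, in EE 4656, 4959 and 5952, and in ER 5358, 5470 and 5813. All 6 ER rats were above the medians of SH and of EE, but 1 EE rat was above every ER rat and the groups overlapped. The SH group averaged 5189 ± 347, the EE group 5166 ± 481 and the ER group 5544 ± 190 (SD, n = 6). The log2 fold change of Dlg3 was 0.10 (interval -0.03 to 0.23) in ERvSH, 0.11 (-0.02 to 0.24) in ERvEE and -0.01 (-0.14 to 0.12) in EEvSH. The exact two-sided permutation p was 0.0541 in ERvSH and 0.0996 in ERvEE. The ERvSH value was nearly the same without SH 1 and SH 3, 0.10 (interval -0.04 to 0.23).

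Dlg4 encodes PSD-95 itself, the most studied scaffold of the excitatory synapse. Its normalized value in SH had a lowest of 11570 in SH 1, a median of 14000 and a highest of 14870, against 13470, 14380 and 14820 in EE and 13660, 14190 and 14570 in ER. SH 3 was the only other rat below this band, at 11841. The SH group averaged 13440 ± 1380, the EE group 14270 ± 460 and the ER group 14150 ± 306 (SD, n = 6). Log2 fold changes of Dlg4 were 0.09 (interval -0.04 to 0.22) in EEvSH, 0.08 (-0.05 to 0.21) in ERvSH and -0.01 (-0.14 to 0.12) in ERvEE. Over the 16 libraries they were -0.0037, -0.02 and -0.01, and the ERvEE interval was -0.09 to 0.07. In that fit the interval limits the ERvEE change of Dlg4 to less than 0.1 on the log2 scale in either direction.

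**Figure D2:**
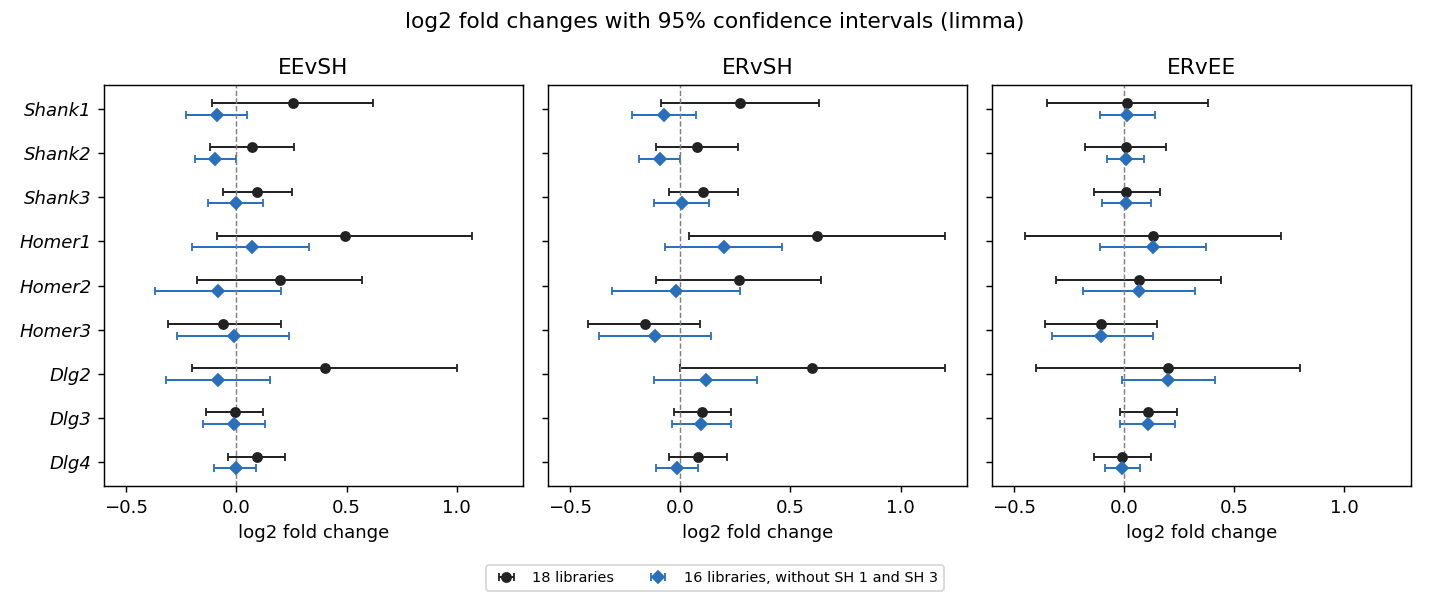
Log2 fold changes (x axis) of the 9 scaffold genes in EEvSH, ERvSH and ERvEE with 95% confidence intervals from limma, for all 18 libraries (circles) and for the 16 without SH 1 and SH 3 (diamonds). Against SH, the values of Homer1 move from 0.49 and 0.62 to 0.07 and 0.20 when both libraries are left out, and ERvEE values stay the same with narrower intervals.

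As a list, 7 of the 9 members had positive values in EEvSH, with a median of 0.094 beside 0.0185 for all genes. In ERvSH 8 of 9 were positive, with a median of 0.102 beside 0.0103, and in ERvEE 7 of 9, with a median of 0.014 beside 0.00296. EEvSH and ERvSH share the SH rats, so their likeness is not independent. Without SH 1 and SH 3, only Homer1 was positive in EEvSH and the median was -0.012 beside -0.00158 for all genes, and in ERvSH 4 of 9 were positive with a median of -0.015 beside 0.000118. The positive medians against SH were thus not seen without this pair of rats, whereas the ERvEE count and median do not use them.

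The deviation of single rats set the members apart from each other. Against the median of the other libraries, SH 3 was at -2.32 for Homer1, -2.29 for Dlg2 and -1.22 for Shank1 on the log2 scale, at -0.27 for Dlg4 and at -0.00 for Dlg3, and at 0.42 for Homer3. SH 1 was at -0.86 for Homer2, -0.70 for Shank1, -0.63 for Dlg2 and -0.51 for Homer1. SH 3 was the lowest of 18 for 4 members and SH 1 for 3. In the other libraries no member lay further than 0.48 from the median. The 10 pan-neuronal markers of SH 3 summed to 197222, inside the SH range of 170883 to 207047, with no marker at 0. The sum of 7 central amygdala markers was highest of all libraries in SH 3, at 12290, and next in SH 1, at 10118. SH 1 also had the highest sums of interneuron markers, 36401, and of astrocyte markers, 103446. Excitatory, oligodendrocyte, microglia, endothelial and striatal sums of both lay inside the range of the other libraries. The part of tissue makeup in these deviations was not tested.

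**Figure D3:**
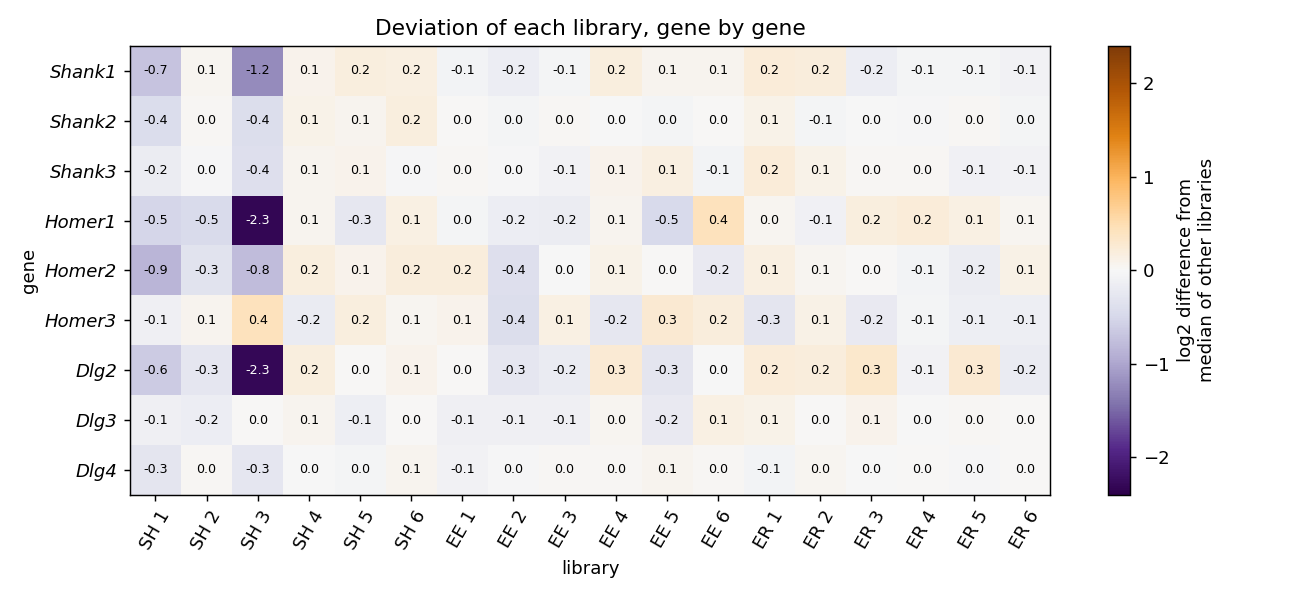
Log2 difference of each library (x axis) from the median of the other libraries for each scaffold gene (y axis, colour scale in log2 units, values rounded in the cells). The darkest cells are Homer1 and Dlg2 in SH 3, at -2.32 and -2.29, with Dlg3 at -0.00 in the same rat.

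The spread within groups differed as much between members. The residual SD of log2 values was 0.0941 for Dlg4 and 0.0979 for Dlg3, smaller than for all but 6.33% and 7.32% of the 11496 genes with a mean of at least 100. It was 0.561 for Dlg2 and 0.544 for Homer1, and 95.7% and 95.2% of those genes had a smaller one. Without SH 1 and SH 3 the SD was 0.0407 for Dlg4 and 0.0498 for Shank2, but still 0.227 for Homer1 and 0.202 for Dlg2. For Homer1 the counting error was 0.0418, well under either SD, so most of this spread was between libraries.

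Members varied together in a way that depended on the same rats. Over 18 libraries, 28 of 36 pairs of members had a positive Pearson r of log2 values, with a median of 0.66 and a highest of 0.94 for Homer1 with Dlg2. Over the 16 libraries without SH 1 and SH 3 the median was 0.15, and 4 pairs reached 0.5. These were Homer1 with Dlg3 at 0.86, Dlg2 with Dlg3 at 0.73, Shank1 with Shank3 at 0.63 and Homer1 with Dlg2 at 0.57. All such r values are descriptions over libraries that share a scaling and a dissection, and carry no test.

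Over the 16 libraries without SH 1 and SH 3, the triad of Homer1, Dlg2 and Dlg3 followed the summed markers of neurons. The other members did not. There, r of log2 values with the pan-neuronal sum was 0.86 for Dlg3, 0.81 for Homer1 and 0.81 for Dlg2. It was -0.29 for Dlg4, -0.09 for Shank1, 0.08 for Shank2, -0.11 for Shank3, 0.11 for Homer2 and -0.47 for Homer3. With the sum of 8 excitatory markers it was 0.91 for Dlg3, 0.88 for Homer1 and 0.67 for Dlg2, and with the sum of 9 astrocyte markers -0.87, -0.85 and -0.71. The neuron markers were not singled out. In the same order, r was 0.92, 0.79 and 0.89 with the summed proteins that scaffolds bind, a list described below. With inhibitory scaffolds, also described below, r was 0.87, 0.75 and 0.83. For Dlg3 the pan-neuronal value was also 0.86 over all 18 libraries, but it was 0.29 for Homer1 and 0.27 for Dlg2 with SH 1 and SH 3 included. These are a few of 117 such values per set of libraries, from 13 lists and 9 members.

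**Figure D4:**
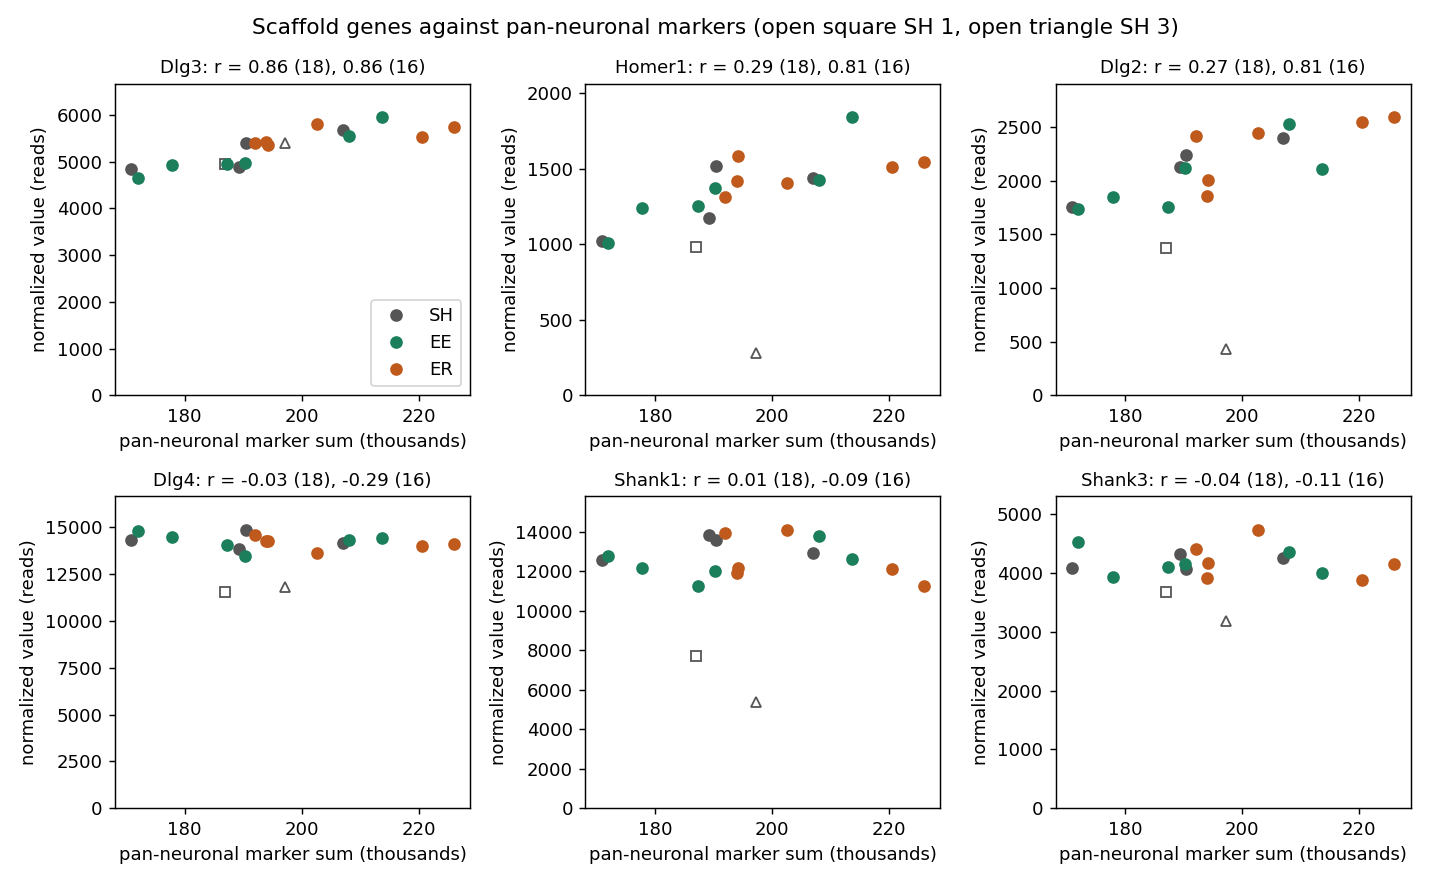
Normalized values (reads, y axis) of 6 scaffold genes against the sum of 10 pan-neuronal markers (x axis, normalized reads divided by 1000), a point per rat coloured by group, with Pearson r of log2 values over 18 and 16 libraries. Dlg3 climbs with the marker sum (r = 0.86 over 16 libraries), while Dlg4 is flat (r = -0.29). SH 3 (open triangle) lies far below the other rats for Homer1, Dlg2 and Shank1 but not for Dlg3.

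The marker sums of the groups overlapped. The pan-neuronal sum had a lowest of 192058, a median of 198455 and a highest of 226064 in ER, against 171980, 188772 and 213760 in EE and 170883, 189905 and 207047 in SH. In ERvEE all 10 pan-neuronal markers had positive log2 fold changes, with a median of 0.082, beside 0.11 for Dlg3, 0.13 for Homer1 and 0.20 for Dlg2. None of these markers was at an unadjusted p under 0.05 by limma (3.66% of all genes). It was passed by 1 of 8 excitatory, 2 of 8 interneuron, 2 of 9 astrocyte and 1 of 10 oligodendrocyte markers. Of the rest, 2 of 10 microglia, 2 of 6 endothelial, 1 of 10 striatal and 1 of 7 central amygdala markers passed it. In that order, the counts without SH 1 and SH 3 were 3, 2, 4, 5, 4, 2, 3 and 1 (7.84% of all genes). The pan-neuronal count was 0. The excitatory sum had medians of 79647 in ER, 68095 in EE and 69436 in SH. Of 10 oligodendrocyte markers, 10 were positive in EEvSH, with a median of 0.336, and 0 in ERvEE, with a median of -0.368, and their sums ran from 76419 to 186577 in EE and from 78605 to 120139 in ER. The part of tissue makeup in the ER values of Homer1, Dlg2 and Dlg3 was not tested.

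The genes most like each member were sought in the 15211 genes whose mean reached 10. Dlg2 had the closest neighbour, Scn8a, a sodium channel of the axon initial segment and nodes, with r = 0.994 over 18 libraries and 0.971 over 16. Soga3 was also close over 16 libraries (0.949). Homer1 was closest to Napb, a cofactor of vesicle fusion, over 18 libraries (0.977) and to Vps41 and the calcineurin subunit Ppp3cb over 16 (0.915 each). Dlg3 was closest to AC126641.1 over 18 libraries (0.917), and over 16 to the ubiquitin ligase Pja2 (0.928), AC126641.1 (0.928) and the calcium pump of the endoplasmic reticulum Atp2a2 (0.921), in that order. Shank3 kept the same closest gene in both sets, the mitochondrial carrier Slc25a23, at 0.922 and 0.846, and so did Homer3 with the kinase Jak3, at 0.845 and 0.814. Closest genes of the others over 18 and 16 libraries were Ppp1r12b (0.984) and Khsrp (0.858) for Shank1, Ice1 (0.964) and Ubn1 (0.849) for Shank2, Bahcc1 (0.917) and Slc35g3 (0.797) for Homer2, and Tmem8b (0.916) and Arrb2 (0.761) for Dlg4. The highest of 15211 values is high by construction.

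Other genes of the postsynaptic density were taken from a list of 40, of which 38 were in the table. None passed the adjusted threshold in any contrast. In ERvSH 29 of 38 had positive log2 fold changes, with a median of 0.181, and 6 of 38 were at an unadjusted p under 0.05 by limma, as were 7.89% of all genes. Among them were the anchoring protein Akap5 at 0.55, the Ras scaffold Cnksr2 at 0.30, the glutamate receptor binder Grip1 at 0.30 and, of the SAPAP genes that join Dlg to Shank, Dlgap4 at 0.18 and Dlgap1 at 0.15. In EEvSH 29 were positive, with a median of 0.142, and Magi1 at 0.42 was the only one past it (5.87% of all genes), with Ppp1r9b at 0.12 and Akap5 at 0.44 next. In ERvEE 25 were positive, with a median of 0.065, and Cnksr2 alone was past it at 0.30 (3.66% of all genes), with Camk2n1 at -0.39 and Dlgap4 at 0.13 next. Leaving out SH 1 and SH 3, the list had 16 positive genes in EEvSH, with a median of -0.022, and 21 in ERvSH, with a median of 0.013. In that fit 0 of 38 were past the unadjusted threshold in ERvSH (6.45% of all genes) and 6 of 38 in ERvEE (7.84% of all genes). In that fit Akap5 was at 0.06 in EEvSH and 0.17 in ERvSH and Magi1 at 0.06 in EEvSH. The ERvSH values were then 0.23 for Cnksr2, 0.10 for Dlgap1, 0.07 for Grip1 and 0.06 for Dlgap4.

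Cnksr2 was the only gene of that list past the unadjusted threshold in both ERvSH and ERvEE, which share the ER rats. Its normalized value had a lowest of 4356, a median of 4652 and a highest of 5126 in ER, against 2842, 3597 and 5313 in EE and 3179, 3866 and 4645 in SH. The groups overlapped, and the adjusted p was 0.567 in ERvSH and 1 in ERvEE by limma.

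Of 24 genes for receptors, channels and adhesion proteins that the scaffolds bind, 23 were measured, and none passed the adjusted threshold. In ERvSH 21 were positive, with a median of 0.141, and 7 of 23 were at an unadjusted p under 0.05 (7.89% of all genes), led by the neuroligin Nlgn3 at 0.24 and the AMPA receptor subunit Gria3 at 0.22. In ERvEE 18 were positive, with a median of 0.076, and 3 were past it (3.66% of all genes), led by Nlgn1, a neuroligin that binds PSD-95, at 0.28 and Cacng2 (stargazin), which ties AMPA receptors to PSD-95, at -0.25. Nlgn1 had a lowest of 2226, a median of 2501 and a highest of 2626 in ER, against 1472, 2082 and 2420 in EE, with an adjusted p of 1 by limma. In EEvSH 17 were positive, with a median of 0.076, and Trpc1, a channel bound by Homer, was the only one past it at 0.18 (5.87% of all genes). Leaving out SH 1 and SH 3, 20 of 23 were positive in ERvSH, with a median of 0.105, and 12 in EEvSH, with a median of 0.001. In that fit 1 of 23 was past the unadjusted threshold in ERvSH (6.45% of all genes), 6 in ERvEE (7.84%) and 0 in EEvSH (8.35%). Nlgn3 was then at 0.11 and Gria3 at 0.14 in ERvSH, and Trpc1 at 0.12 in EEvSH.

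Of 8 genes of inhibitory postsynaptic scaffolds, 7 were measured. In EEvSH, ERvSH and ERvEE, 0 of 7 were at an unadjusted p under 0.05 by limma, beside 5.87%, 7.89% and 3.66% of all genes. Without SH 1 and SH 3, 1 of 7 was past it in EEvSH (8.35% of all genes), and 0 in ERvSH (6.45%) and ERvEE (7.84%). In ERvSH 7 of 7 were positive, with a median of 0.121, but 3 of 7 without SH 1 and SH 3. The neuroligin of inhibitory synapses, Nlgn2, was at 0.17 in EEvSH and at 0.16 in ERvSH, but at 0.01 and -0.01 without SH 1 and SH 3. Of 14 activity-induced genes, the kind to which the short form of Homer1 belongs, 6 were positive and 8 negative in each contrast, and none passed the adjusted threshold. At an unadjusted p under 0.05 by limma were 1 of 14 in EEvSH (5.87% of all genes), 2 in ERvSH (7.89%) and 1 in ERvEE (3.66%). Without SH 1 and SH 3 these counts were 3 (8.35%), 0 (6.45%) and 2 (7.84%). Among those over 18 libraries, Junb was at -0.33 (SE 0.12) in EEvSH, and at -0.31 without SH 1 and SH 3. Npas4 was at 0.92 (SE 0.42) in ERvSH (0.65 without them) and Egr1 at -0.40 (SE 0.15) in ERvEE. Over the 16 libraries, r of Homer1 with the sum of these genes was 0.61, below its 0.81 with the pan-neuronal sum. Over all 18 libraries the order was the other way, 0.42 with these genes and 0.29 with the pan-neuronal sum.

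Reads of Shank1, Shank2, Shank3, Homer2, Homer3 and Dlg2 could include some from other genes, since the RefSeq table lists genes overlapping each of them, 11 for Dlg2, and the sources used here do not say whether counting used the strand. That table lists none for Homer1, Dlg3 and Dlg4.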

How the data were processed

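RNA of BLA micropunches from 18 rats (Experiment 2) was sequenced as poly(A)-selected, single-end reads of 50 bases. The authors aligned reads with HISAT2 and divided reads per gene by DESeq2 size factors, and deposited this signal; tool versions, genome build, annotation and counter were not given in the sources used here. Within a library, 100.0% of values up to 1000 reads were whole within 0.01 once divided by that library's smallest step, so reads per gene were recovered, giving 17753797 to 23450276 reads per library. The step of EE 3 lies too near 1 to prove this from its values alone. All sample columns were used (0 unused), and 0 pairs of libraries were identical.

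Values were taken as log2(value + 1), and 18172 of 19113 genes (mean above 1) were fitted with limma 3.58.1 (intensity trend, empirical Bayes, R 4.3.3) as 1 model of 3 groups. Single values were also compared by exact permutation over 924 splits of 12 rats. The text names all 9 members; by list and contrast, other density genes with an unadjusted p under 0.05 or else the 3 smallest p, and the 1 or 2 smallest of the lists of partners, inhibitory scaffolds and activity genes; and the genes most like each member. Some genes so chosen are not reported here. Markers and genes named for their pattern or as a check of tissue were chosen after values were seen. The members and all 13 lists (161 of 168 symbols found) were chosen with earlier results of these data known, so lists get counts and medians and no test. Alternatives changed scaling, filter, pseudocount, test (edgeR 4.0.16, DESeq2 1.42.0, limma-voom with sample weights) and libraries, or added the replicate number as a block; SH 1 and SH 3 were known to stand apart when leaving them out was planned. The script was tested on simulated data.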

Additional observations from a re-analysis of the deposited data

Results flagged for a closer look

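Of the 27 sets of 6 values (9 scaffold genes in 3 groups), 1 had a rat whose gap to the next exceeded what Dixon's test allows, and only just. It was Shank2 in ER 1, with a normalized value of 3451 where the nearest ER rat, ER 5, had 3229. Chance gives about 1 such set in 20. SH 3, the rat with the lowest Homer1, Dlg2, Shank1 and Shank3, was not picked out by this test in the SH group. The test uses the gap to the next rat, so a second low rat can hide the first. SH 1 was next, at 7722 beside 5398 for Shank1 and 1374 beside 434.2 for Dlg2, so the test cannot show that SH 3 was ordinary.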

How the results depend on the processing

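Of the 33 settings, the log2 ratio of group means gave no p-value. No member passed an adjusted p of 0.05 under any of the others, and the smallest adjusted p of any member was 0.346. Of 27 log2 fold changes, 12 kept their sign under every setting and 15 did not. Without SH 1 and SH 3 the sign turned in EEvSH for Shank1 (-0.089), Shank2 (-0.099), Shank3 (-0.0036), Homer2 (-0.086), Dlg2 (-0.083) and Dlg4 (-0.0037), and in ERvSH for Shank1 (-0.075), Shank2 (-0.092), Homer2 (-0.019) and Dlg4 (-0.015). In limma-voom on recovered reads, with a sample weight of 0.0946 for SH 3 and 0.243 for SH 1, it turned in EEvSH for Shank1 (-0.068), Shank2 (-0.075), Shank3 (-0.0060), Homer2 (-0.037) and Dlg2 (-0.040), and in ERvSH for Shank1 (-0.027), Shank2 (-0.070) and Dlg4 (-0.0006). In edgeR on recovered reads without EE 3, an alternative chosen after seeing the data, ERvEE turned for Shank3 (-0.0041). Values near 0 changed sign when single rats were left out: Homer3 in EEvSH ran from -0.11 to 0.015, Dlg3 in EEvSH from -0.051 to 0.020, and in ERvEE Shank1 ran from -0.020 to 0.045, Shank2 from -0.015 to 0.016 and Shank3 from -0.026 to 0.033. Over all genes, DESeq2 on recovered reads called 1 gene in EEvSH, 2 in ERvSH and 2 in ERvEE where limma called 0, none of them a scaffold gene. Leaving out single rats gave 0 to 1 genes in ERvEE, the 1 without EE 6, and 0 in the other contrasts. The cause was not tested. At an unadjusted p under 0.05, limma had 1067, 1434 and 665 genes in EEvSH, ERvSH and ERvEE. Rats with the same number share only a number: the correlations of their deviations ran from -0.0826 to 0.13, with 1 of 18 pairs over 0.1, and with the replicate block 0 genes were called in each contrast and 1009, 1304 and 669 were under the unadjusted threshold, with no member past the adjusted one. Homer2 and Homer3, with the fewest reads, are limited most by counting error, 0.123 and 0.0956 on the log2 scale for a single library.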
